A study of Mus musculus with 8 samples.

Results

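Aminoacyl-tRNA synthetases join each amino acid to its tRNA, and their messages were followed here in polyribosome fractions of mouse brain. The genes were taken from the count table by symbol: those of the form Aars to Yars, with or without a 2 at the end, together with Eprs, Farsa and Farsb. When a gene had several transcript rows, the row with the most counts over all libraries stood for it. This gave 37 genes of the 21643 gene symbols in the table, 20 cytosolic or shared and 17 mitochondrial (symbols ending in 2). No measured value beyond the choice of row entered the selection.

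Animal cells hold a set of synthetases for cytosolic translation and another, also encoded in the nucleus and imported, for translation inside mitochondria. Some enzymes serve both compartments from the same gene, among them Gars and Kars. In the cytosol 8 of the enzymes measured here (Dars, Eprs, Iars, Kars, Lars, Mars1, Qars and Rars) sit in the multisynthetase complex, held together by the scaffold proteins Aimp1, Aimp2 and Eef1e1, and the others act outside it. Synthetases fall into class I and class II by the fold of the catalytic domain, and several cytosolic ones are known targets of ATF4, the transcription factor of the amino acid response. In neurons, charged tRNA feeds the protein synthesis that memory formation requires.

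The libraries came from C57Bl/6 mice of 7 to 9 weeks, from the hippocampus or the frontal (prefrontal) cortex. Mice were either fear conditioned to a context or exposed to the context alone as control, and RNA associated with polyribosomes was taken at 6 h or 1 h. Each of the 8 combinations of tissue, training and time had 1 library, so none had a replicate: hippocampus conditioned, hippocampus control, cortex conditioned and cortex control at 6 h, and the same at 1 h. The design text speaks of 8 mice and the prefrontal cortex only, while 4 libraries are labelled hippocampus. The number of mice behind each library is not stated, and the p-values therefore describe the spread among these samples alone, which may be technical. A change in polyribosome RNA can come from message abundance, ribosome loading or the share of cells that express the gene, and fewer cells of a type and less RNA per cell cannot be told apart in bulk samples.

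Library totals ran from 2370973 to 5296986 counts. The hippocampus and cortex conditioned 1 h libraries agreed within counting noise over 11649 genes with at least 20 counts in the pair. The variance was 1.08 times that of counting alone, and the next closest of all library pairs stood at 4.76. Over the 37 synthetases alone, with no count minimum, the ratio in this pair was 1.52, above counting alone. The 6 summed hippocampal neuron markers of the pair stood at 241 and 252 CPM (counts scaled to the size of the library). These values lay between those of the hippocampus and cortex control 1 h libraries (464 and 56.5 CPM), so the conditioned libraries went against their tissue labels. They were summed and counted as 1 sample, which left 7 samples, and took no part in the tissue comparison. The hippocampus control 6 h library stood apart from all others: it had the fewest counts, and Kif5c, a kinesin, took 8.01% of them, against 0.0382% to 0.545% in the other libraries. Markers of neurons and glia were present in every library. The summed markers of astrocytes, oligodendrocytes and microglia overlapped between the times, but some single markers did not. The astrocyte marker Aldh1l1 and the microglia marker Tmem119 were lower in every library at 6 h than in every library at 1 h. The astrocyte marker Aqp4 was higher in every library at 6 h, and the other markers of these glial types overlapped. The endothelial markers Cldn5, Pecam1 and Flt1 were at 0 or near it (0.848 to 4.64 CPM in sum).

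Levels per kilobase of transcript were mostly higher in the cytosolic set, and the sets overlapped at their edges. The median cytosolic or shared synthetase stood at 18.6 CPM per kilobase, and the median mitochondrial one at 2.66. Nars (asparagine) led the cytosolic set at a median of 83.4 CPM per kilobase over the 8 libraries, with a range of 70.3 to 111. Sars (serine, 48.4) and Hars (histidine, 42.9) followed, and their ranges of 22.4 to 78.2 and 33.9 to 52.1 overlapped. At the low end of the cytosolic set, Cars (cysteine), Tars (threonine) and Vars (valine) had medians of 4.08, 3.93 and 3.19 CPM per kilobase, with overlapping ranges.

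Among the mitochondrial enzymes Lars2, which charges mitochondrial leucine tRNA, was above every cytosolic median, at a median of 535 CPM per kilobase and a range of 61.3 to 1125. Rars2 (arginine) and Iars2 (isoleucine) came next at 5.27 and 4.91 CPM per kilobase, above Cars, Tars and Vars. The lowest were Aars2 (alanine, 1.41), Mars2 (methionine, 0.734) and Ears2 (glutamate, 0.696). Ears2 had 43 counts in all 8 libraries together and 0 in the hippocampus control 6 h library, where 3 counts, the limit that a count of 0 allows, equal 1.60 CPM. It did not pass the low-count filter, so 36 of the 37 genes were tested.

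Enzymes for the same amino acid were set side by side in the 14 cytosolic and mitochondrial pairs with matching symbols. Phenylalanine (Farsa, Farsb and Fars2), glutamate (Eprs and Ears2) and proline (Eprs and Pars2) were not among them. Leaving out leucine, the cytosolic message was the higher per kilobase in every library for 11 of 13 amino acids, and the median ratio of cytosolic to mitochondrial level ran from 1.49 for cysteine to 38.3 for asparagine. The exceptions were threonine and valine, whose lowest ratios over the libraries were 0.814 and 0.669.

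**Figure D1:**
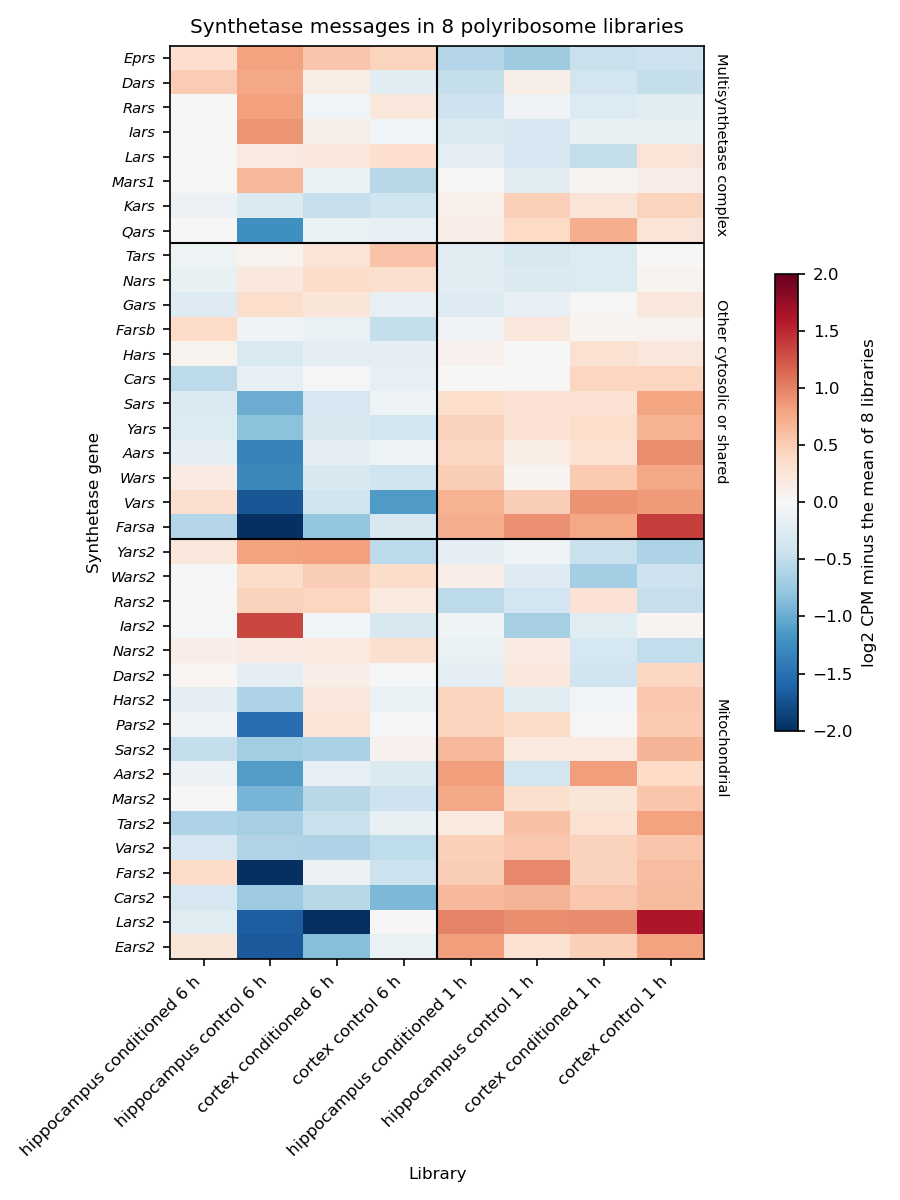
Heat map of the 37 synthetase messages (rows, ordered within each class by their change with time, Ears2 last) in the 8 libraries (columns, 6 h left of 1 h). Colour gives log2 CPM, computed with a prior count of 2, minus the gene's mean over the 8 libraries. Farsa, Cars2, Vars2 and Lars2 are below their mean in the 4 libraries at 6 h or at it, and above it in the 4 at 1 h, and Eprs shows the reverse.

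The first comparison asked how synthetase messages at 6 h differed from those at 1 h, with tissue and training as covariates. Of the 36 genes tested, 2 rose and 9 fell at 6 h (edgeR quasi-likelihood test, adjusted p under 0.05 over 16378 transcript rows). Over all rows 37.7% were called, 20.5% higher and 17.2% lower, so the call rate of the synthetases, 11 of 36, was no higher than the background. The median log2 change was -0.30 for the synthetases and -0.03 for all rows. The neuron markers Snap25, Syt1 and Rbfox3 also differed between the times, at 16256 to 26721 CPM in sum at 6 h, against 7582 to 10051 CPM at 1 h. For all 3, every library at 6 h was above every library at 1 h. The part of these neuron markers in the synthetase changes was not tested, nor was that of Aldh1l1, Aqp4 and Tmem119. Among the 8 complex enzymes 2 rose and none fell by this test, with 6 positive values and a median of 0.58. Among the 12 other cytosolic enzymes none rose and 5 fell, with a median of -0.54, and among the 16 mitochondrial ones none rose and 4 fell, with a median of -0.63. The order of these medians, complex above the other cytosolic and the mitochondrial ones, held under all 17 alternative settings, but with offsets for GC content and length they shrank to 0.15, -0.20 and -0.14. Of the fits that left out 1 library, the complex median was lowest without hippocampus control 6 h (0.37, with 5 positive values). The complex enzymes' median log2 deviation from their mean over the 8 libraries was 0.72 in that library. It was -0.11 to 0.024 in the other libraries at 6 h, and -0.24 to -0.005 at 1 h, with overlap. Calls were lost when some single libraries were left out. Without the cortex control 1 h library no row was called (5532 at an unadjusted p under 0.05). Without the hippocampus control 1 h library 1 synthetase rose and 1 fell, and without either cortex library at 6 h 1 rose and 2 fell. These fits also had fewer residual degrees of freedom, and the part of that in the lost calls was not tested.

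Eprs, the fused enzyme for glutamate and proline, had the largest rise. It stood at 79.9, 110.2, 93.2 and 86.6 CPM at 6 h (hippocampus conditioned, hippocampus control, cortex conditioned, cortex control, the order kept in the values that follow), against 42.0, 38.6, 46.1 and 47.2 CPM at 1 h. Every library at 6 h was above every library at 1 h. The mean was 92.5 ± 13.0 CPM at 6 h (SD, n = 4) and 43.3 ± 4.38 CPM at 1 h (n = 3, the pair averaged). The log2 change was 1.25 ± 0.25 (SE), with an adjusted p of 0.0087 in edgeR's test. Eprs was called in 16 of 17 alternatives, and the one that ended the call left out the cortex control 1 h library (adjusted p 0.073).

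Dars, the aspartate enzyme, was the other gene that rose. It had 36.4, 43.9, 28.3 and 22.0 CPM at 6 h, against 18.1, 27.5, 19.5 and 18.1 CPM at 1 h, so the times overlapped. The log2 change of 0.75 ± 0.26 (SE) had an adjusted p of 0.045 in edgeR's test. With GC and length offsets the direction turned (-0.19, adjusted p 0.61), and Dars was called in 5 of 17 alternatives.

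Of the other complex enzymes, Rars (arginine) and Iars (isoleucine) had every library at 6 h above every library at 1 h and did not pass the test. Rars had 43.7, 77.6, 41.8 and 50.9 CPM at 6 h, against 32.7, 41.5, 36.1 and 37.0 CPM at 1 h (log2 change 0.68, adjusted p 0.056 in edgeR's test). Iars had 57.7, 107, 62.6 and 55.5 CPM at 6 h, against 47.2, 45.9, 52.0 and 52.3 CPM at 1 h (0.66, adjusted p 0.092 in edgeR's test). For both, the hippocampus control 6 h library was the highest of the 8. Kars (lysine) and Qars (glutamine) went the other way, with every library at 6 h below every library at 1 h. Their log2 changes of -0.53 and -0.62 did not pass the test (adjusted p 0.093 and 0.12 in edgeR). Lars (leucine) and Mars1 (methionine) had log2 changes of 0.50 and 0.17 and did not pass it either.

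Among the cytosolic enzymes, Farsa had the largest fall. It encodes the alpha subunit of the cytosolic phenylalanine enzyme, and Farsb encodes the beta subunit. Farsa had 5.49, 1.60, 4.81 and 6.70 CPM at 6 h, against 14.4, 16.5, 14.9 and 23.2 CPM at 1 h, with no overlap, and the value of 1.60 CPM rested on 3 counts. The log2 change was -1.74 ± 0.36 (SE), with an adjusted p of 0.0093 in edgeR's test. Farsb stood at 84.0, 61.5, 58.9 and 46.2 CPM at 6 h, against 61.1, 75.4, 67.1 and 67.8 CPM at 1 h, with a log2 change of -0.06 ± 0.24 (SE, adjusted p 0.86 in edgeR's test). The times overlapped for Farsb. Whether the change differed between the subunits was not tested.

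The other cytosolic enzymes that fell were those for valine, alanine, tyrosine and serine. Vars had 12.4, 2.67, 7.31 and 4.21 CPM at 6 h, against 16.2, 14.0, 18.8 and 18.1 CPM at 1 h (log2 change -1.39, adjusted p 0.021 in edgeR's test). Yars had 67.1, 45.5, 64.7 and 62.4 CPM at 6 h, against 111, 99.2, 103 and 132 CPM at 1 h (log2 change -0.79, adjusted p 0.026 in edgeR's test). In all 4 genes every library at 6 h was below every library at 1 h. Aars had 104, 46.5, 104 and 112 CPM at 6 h, against 157, 131, 147 and 226 CPM at 1 h (-0.80, adjusted p 0.047 in edgeR's test). Sars had 68.2, 41.7, 66.4 and 78.5 CPM at 6 h, against 108, 102, 102 and 146 CPM at 1 h (-0.75, adjusted p 0.040 in edgeR's test). With GC and length offsets none of these 4 passed, and Farsa had -0.91 with an adjusted p of 0.054. Of the 17 alternatives, 15 called Farsa, 12 Vars, 11 Yars, 11 Sars and 9 Aars.

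Across all rows, 19.0% had every library at 6 h above every library at 1 h and 25.5% every one below. Among the 36 tested synthetases 3 lay above, all in the complex, and 15 below, of which 8 were cytosolic and 7 mitochondrial. Of the 8 cytosolic ones below, 2 were in the complex, Kars and Qars. The pair contributed 2 of the 4 libraries at 1 h to this count.

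Lars2 was the mitochondrial gene that fell furthest. It had 1215, 458, 239 and 1424 CPM at 6 h, against 2842, 2746, 2770.0 and 4380.2 CPM at 1 h. The times did not overlap, while the libraries at 6 h differed widely among themselves. The mean was 834 ± 574 CPM at 6 h (SD, n = 4) and 3311 ± 927 CPM at 1 h (n = 3), and the log2 change was -1.80 ± 0.53 (SE), with an adjusted p of 0.026 in edgeR's test. With GC and length offsets Lars2 stayed at -1.75 (adjusted p 0.039), while DESeq2 gave -1.83 with an adjusted p of 0.077. Leaving out the cortex control 1 h library ended the call (-1.60, adjusted p 0.13 in edgeR's test), as did leaving out the hippocampus control 1 h library (-2.09, adjusted p 0.065). Lars2 was called in 14 of 17 alternatives.

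Because of Lars2, the summed mitochondrial synthetases swung between 369 and 4535 CPM over the libraries, and Lars2 made up 64.8% to 96.6% of that sum. The 16 other mitochondrial genes together held 122, 153, 130 and 115 CPM at 6 h, against 150.1, 133, 132 and 155 CPM at 1 h, with overlap. The 20 cytosolic ones together held 1183, 1209, 1236 and 1185 CPM at 6 h, against 1252, 1205, 1294 and 1554 CPM at 1 h. The summed cytosolic level at 6 h therefore overlapped that at 1 h, although single genes moved in both directions.

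**Figure D2:**
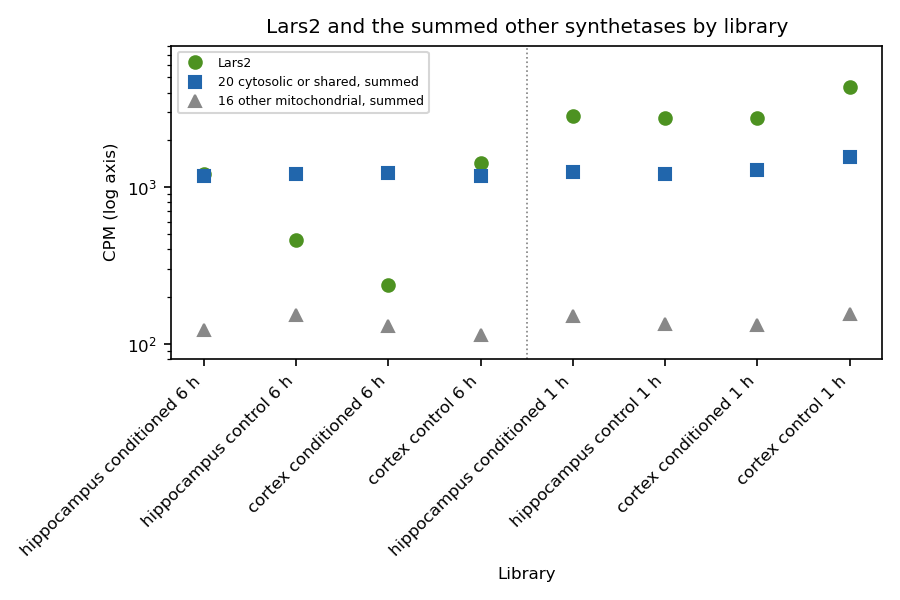
Level of Lars2 (circles), the 20 cytosolic or shared synthetases summed (squares) and the 16 other mitochondrial ones summed (triangles), in CPM on a log axis, for each library, 6 h left of 1 h. Lars2 lies between 239 and 1424 CPM in the 4 libraries at 6 h and between 2746 and 4380.2 CPM in the 4 at 1 h, while the other sums overlap between the times.

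The Lars2 transcript is 3894 nucleotides long in the GRCm38 annotation, with a 3′ untranslated region of 989 nucleotides. In that region 44 stretches of 25 nucleotides are shared with the noncoding gene AA474408 and 28 with Gm15564. Neither gene was in the count table, so reads from them could be counted as Lars2, and the part this plays in the Lars2 values was not tested.

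The remaining mitochondrial genes that fell had low levels. Cars2 (cysteine) had 3.66, 2.67, 3.08 and 2.30 CPM at 6 h, against 7.74, 7.86, 7.08 and 7.63 CPM at 1 h (log2 change -1.26, adjusted p 0.017 in edgeR's test). Vars2 (valine) had 5.26, 4.28, 4.23 and 4.60 CPM at 6 h, against 9.54, 10.1, 9.52 and 10.2 CPM at 1 h (-0.96, adjusted p 0.031 in edgeR's test). Tars2 (threonine) had 3.89, 3.74, 4.43 and 5.55 CPM at 6 h, against 7.22, 9.58, 7.81 and 11.3 CPM at 1 h (-0.88, adjusted p 0.041 in edgeR's test). None of the 3 overlapped between the times, and none passed with GC and length offsets. Of the 17 alternatives, 11 called Cars2, 10 Vars2 and 8 Tars2. The highest value among mitochondrial genes was that of Yars2 (tyrosine), with 8.01, 12.3, 12.3 and 4.60 CPM at 6 h, against 5.93, 6.39, 4.88 and 4.24 CPM at 1 h. It overlapped between the times and did not pass the test (0.87, adjusted p 0.11 in edgeR).

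Of the 14 amino acids whose enzymes for the compartments have matching symbols, both values were below 0 for 5, both above 0 for 4, and opposite for 5. Valine was the amino acid for which both enzymes fell. For tyrosine, Yars fell while Yars2 did not pass the test, and for leucine, Lars2 fell while Lars did not pass it. Among genes with 1 catalytic class, class I and class II had median log2 changes of -0.33 over 17 genes and -0.40 over 18.

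**Figure D3:**
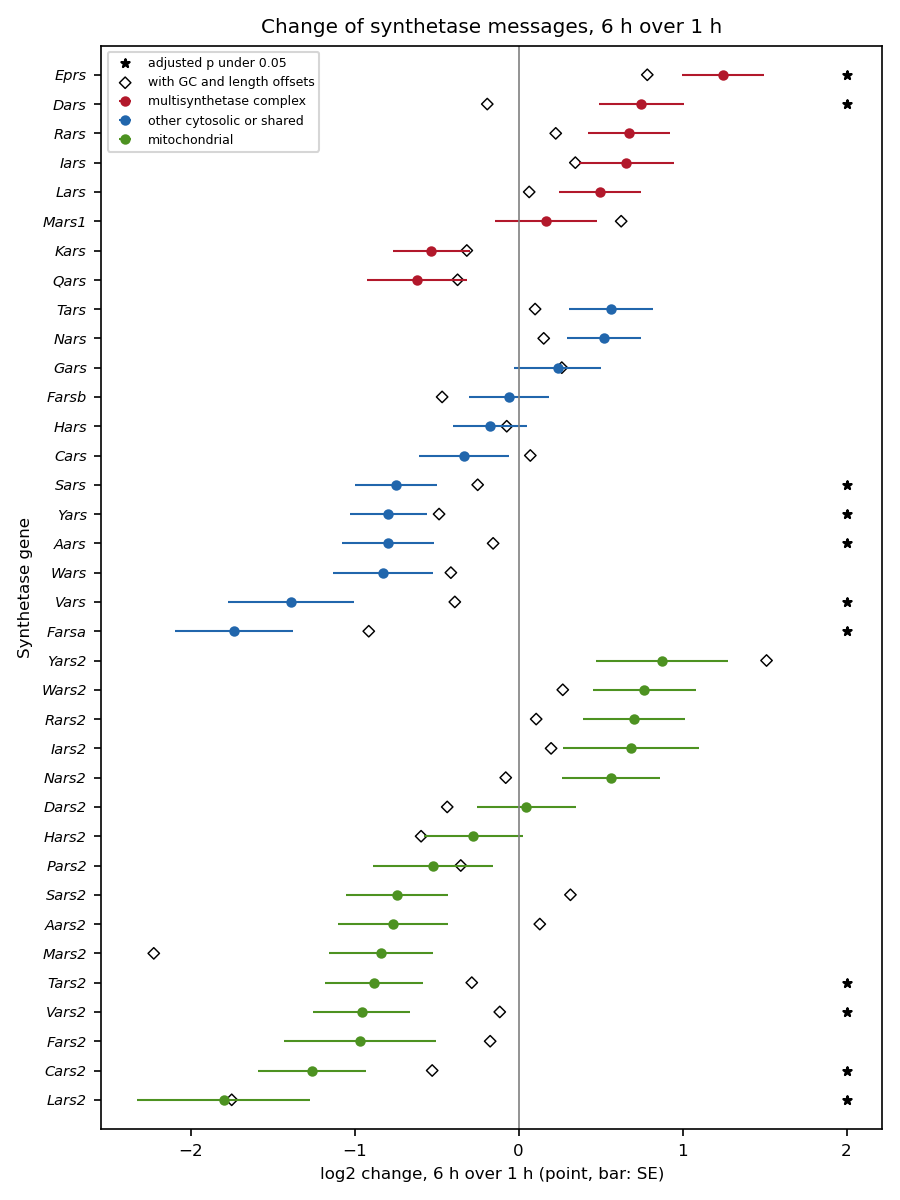
Log2 change of the 36 tested synthetases, 6 h over 1 h (points, with SE as bars), by class of enzyme, with the value under GC and length offsets as open diamonds. Stars mark the 11 genes with an adjusted p under 0.05 in edgeR's test: Eprs and Dars lie right of 0 and the other 9 left of it, and the diamond of Lars2 stays near its point while that of Dars crosses 0.

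The change with time followed the GC content of the transcripts. The rank correlation between GC content and log2 change was -0.77 over 15994 transcript rows and -0.66 over the 36 synthetases, which share the same libraries. The 9 genes that fell had GC contents from 51.2% to 60.9%, against 41.2% for Dars and 47.2% for Eprs. Complex enzymes had a median GC content of 47.7%, against 53.1% for the other cytosolic ones. With GC and length offsets in the fit the rows called dropped to 1742 of 15994, 1148 higher and 594 lower. Of the 36 synthetases 2 were called higher and 2 lower, a share near that of all rows. They were Eprs (0.78, adjusted p 0.030) and Yars2 (1.51, adjusted p 0.045) above 0, and Lars2 and Mars2 (-2.22, adjusted p 0.010) below it. Mars2 was matched to a transcript of 11294 nucleotides. Eprs and Lars2 were thus the 2 synthetases called in both fits. The labels name no preparation or sequencing batch, so a batch that coincides with time cannot be told apart from it.

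**Figure D4:**
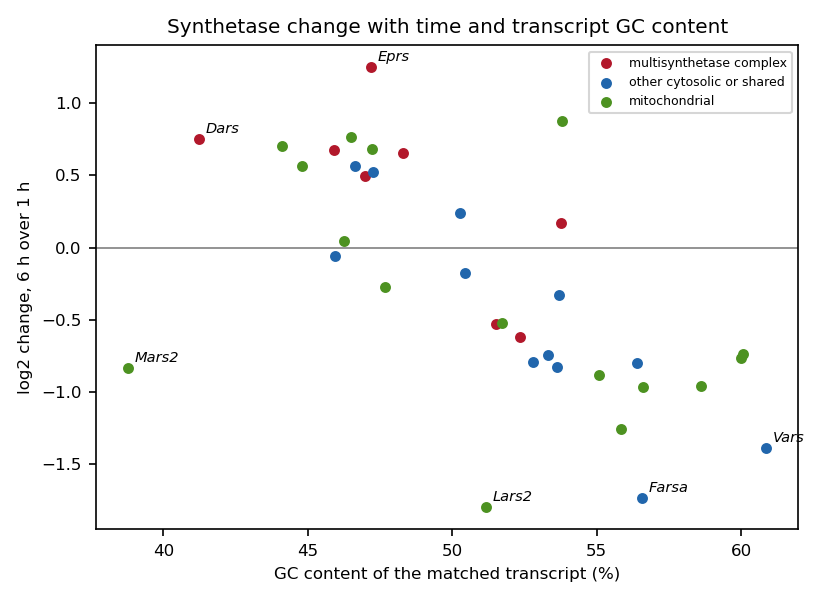
Log2 change, 6 h over 1 h, of the 36 tested synthetases against the GC content of the matched transcript in percent, coloured by class of enzyme. Farsa and Vars, at 56.6% and 60.9% GC, lie low, Eprs at 47.2% lies highest, and Lars2 at 51.2% lies below genes of like GC content.

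Whether the time effect differed between hippocampus and cortex was tested with an interaction term added after the data were seen. None of the 16378 rows was called in edgeR's test, with 372 at an unadjusted p under 0.05, none of them a synthetase.

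Training, conditioned over control across both tissues and times, changed no synthetase by edgeR's test. No row of 16378 was called (0.0%), with 296 at an unadjusted p under 0.05 and no synthetase among these. DESeq2 and limma-voom also called none, with 267 and 327 rows at an unadjusted p under 0.05. The median log2 value was -0.04 for the synthetases and 0.00 for all rows. The smallest p-values belonged to Aars2 (log2 conditioned over control 0.71 ± 0.34, SE), Vars (0.79 ± 0.39), Rars (-0.42 ± 0.25) and Wars (tryptophan, 0.50 ± 0.31), all with an adjusted p of 0.94 in edgeR's test. With 3 residual degrees of freedom the intervals are wide, and these values do not show that training left the messages alike.

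Within the 6 h time point, 1 conditioned and 1 control library could be compared in each tissue, which gives values and no test. Lars2, the most abundant of the mitochondrial messages, differed widely in both tissues. In the hippocampus it had 5310 counts in the conditioned library and 856 in the control, a depth-corrected ratio of 2.65 (95% interval 2.47 to 2.86 for counting error only). In the cortex it had 1240 counts in the conditioned library and 7434 in the control, a ratio of 0.168 (0.158 to 0.178). The direction was opposite in the tissues, and both ratios rest on 1 library a side. The summed markers of striatal projection neurons differed in the same directions, at 48.3 CPM in the conditioned and 11.8 CPM in the control library of the hippocampus, and 156 CPM in the conditioned and 257 CPM in the control library of the cortex. All 5 of these markers did so in each tissue, with Tac1 and Adora2a at 0 in the hippocampus control library. The summed markers of astrocytes (287 CPM conditioned and 236 control in the hippocampus, 146 and 156 in the cortex) and oligodendrocytes (974 and 835, 502 and 555) did so too. Those of all neurons (16256 and 26360, 26721 and 25070) and of cortical excitatory neurons (165 and 295, 1139 and 1028) went the opposite way in each tissue. The sums of the other types each had the same direction in both tissues. The part of any of these markers in the ratios at 6 h was not tested.

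In the hippocampus 33.6% of all rows were past a log2 ratio of 1 (23.0% above and 10.7% below), as were 9 of the 36 synthetases, 8 above and 1 below. Vars (54 counts conditioned, 5 control) had a ratio of 4.62 (95% interval 1.86 to 14.8), and Wars (388 and 60) had 2.77 (2.10 to 3.69). On the low side, Iars2 (120 and 135) had a ratio of 0.380 (0.295 to 0.490), Iars (252 and 200) 0.539 (0.446 to 0.652) and Rars (191 and 145) 0.564 (0.452 to 0.704). The control library here is the one with 8.01% of its counts in Kif5c, and its part in these ratios was not tested.

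In the cortex 2.58% of all rows were past a log2 ratio of 1 (1.25% above and 1.33% below), and 2 synthetases were, Lars2 below and Yars2 above. Yars2 had 64 counts in the conditioned library and 24 in the control, a ratio of 2.68 (95% interval 1.65 to 4.48). Vars (38 and 22, ratio 1.74) and Mars1 (241 and 181, ratio 1.34) had intervals from 1.00 to 3.08 and 1.10 to 1.63. Sars2 (serine, 23 and 40) had a ratio of 0.578 (0.330 to 0.989), and Farsa (25 and 35) one of 0.718 (0.412 to 1.23), which spans 1. The median log2 ratio of the synthetases was 0.22 in the hippocampus, beside 0.15 for all rows, and 0.10 in the cortex, beside 0.01.

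**Figure D5:**
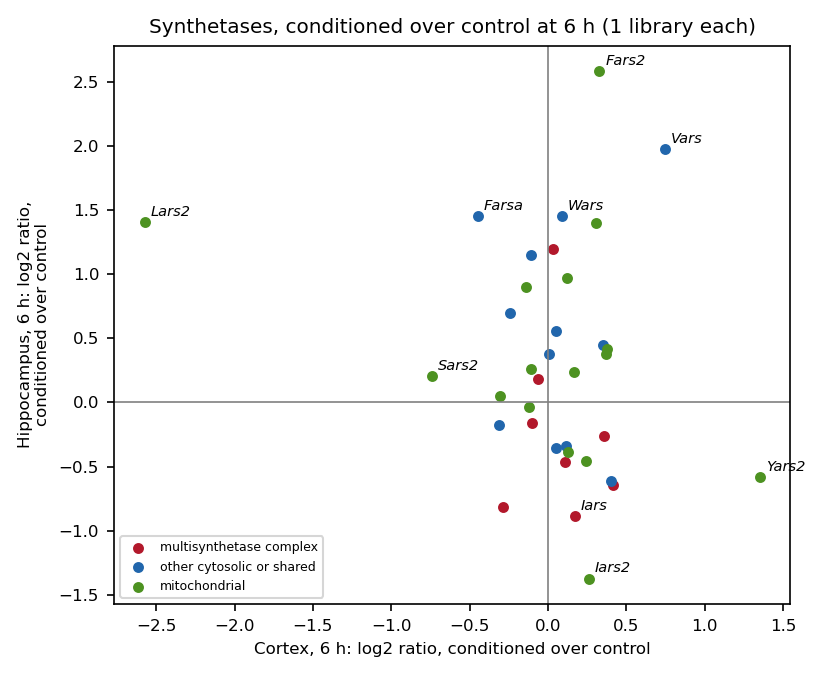
Log2 ratio of conditioned over control at 6 h for the 36 tested synthetases, in the hippocampus (vertical) against the cortex (horizontal), 1 library for each value and no error shown. Lars2 stands alone at upper left, with ratios of 2.65 in the hippocampus and 0.168 in the cortex, and the position of Fars2 rests on 1 count in the hippocampus control library.

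Between the tissues no synthetase was called. In the 6 libraries outside the pair, 3.72% of 16123 rows differed between hippocampus and cortex (1.72% higher and 2.0% lower in the hippocampus, edgeR, adjusted p under 0.05), and none of the 36 synthetases did, nor had any of them an unadjusted p under 0.05. DESeq2 and limma-voom called no synthetase, with 0 and 1 at an unadjusted p under 0.05. The smallest p-values belonged to Aars (log2 hippocampus over cortex -0.66 ± 0.33, SE), Dars (0.67 ± 0.34), Hars2 (histidine, -0.59 ± 0.42) and Sars (-0.44 ± 0.32), with adjusted p of 0.41 to 0.65 in edgeR's test. Aars had 104, 46.5 and 131 CPM in the hippocampus libraries (conditioned 6 h, control 6 h, control 1 h), against 104, 112 and 226 CPM in the cortex libraries. Dars had 36.4, 43.9 and 27.5 CPM in the hippocampus libraries, against 28.3, 22.0 and 18.1 CPM in the cortex libraries. Within each condition Dars was the higher in the hippocampus, while Aars was lower there in both control pairs and level in the conditioned one.

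Of 16 tested partners of the charging reaction, 2 rose and 1 fell at 6 h relative to 1 h, with a median log2 change of 0.01, beside 20.5% higher and 17.2% lower over all rows. Gatc, a subunit of the mitochondrial amidotransferase that makes glutaminyl-tRNA, rose (1.41 ± 0.34, SE, adjusted p 0.013 in edgeR's test), as did Pstk, the kinase that acts on seryl-tRNA for selenocysteine (1.33 ± 0.47, adjusted p 0.048). The complex scaffold Aimp2 fell (-1.33 ± 0.30, adjusted p 0.011), while Aimp1 (0.55, adjusted p 0.13) and Eef1e1 (-0.33, adjusted p 0.40) did not pass the test. Under GC and length offsets Gatc was called higher and Eef1e1 lower (-0.995, adjusted p 0.037 in edgeR's test), and neither Pstk nor Aimp2 was called. Over all rows that fit called 1148 higher and 594 lower of 15994.

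Of 30 genes of tRNA maturation and export, 5 rose and 5 fell over time, with a median of 0.17, which is no more in either direction than the 20.5% and 17.2% over all rows. Those that rose included Trnt1, which adds the CCA end that synthetases charge (2.04 ± 0.32, SE, adjusted p 0.0064 in edgeR's test), Ssb, the La protein that binds new tRNA transcripts (2.68), Trmt10c, of mitochondrial RNase P (1.92), and Rpp38, of nuclear RNase P (1.41). Those that fell included the splicing endonuclease subunit Tsen34 (-1.81), the tRNA ligase Rtcb (-1.13) and the RNase P subunits Pop5 (-1.25) and Pop7 (-1.66). Under GC and length offsets 4 were called higher, including Trnt1 (1.33), Ssb (1.38) and Rpp38 (1.27), and 2 lower, Tsen34 (-0.95) and Rtcb (-0.92). That fit called 1148 higher and 594 lower of 15994 rows.

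Of 30 genes of the amino acid response outside the synthetases, 3 rose and 7 fell, with a median of -0.46, beside 20.5% and 17.2% over all rows, and the 10 called were no larger a share than the background of 37.7%. Cebpg, a partner of ATF4 (1.58), the kinase Eif2ak2 (1.64) and the receptor Vldlr (1.36) rose. Gcn1, the activator of the kinase that senses uncharged tRNA (-1.16), the serine synthesis enzyme Phgdh (-1.34), the transcription factor Atf5 (-1.59) and Slc3a2, the heavy chain of an amino acid transporter (-1.02), fell. None of these 7 was called under GC and length offsets, where 1148 of 15994 rows were called higher and 594 lower. Slc7a11, a cystine transporter subunit, was the 1 gene of the list called there, at -1.94 (adjusted p 0.013 in edgeR's test). None of the genes in these 3 lists was called for training or tissue in edgeR's test.

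The C/EBP-ATF response element, through which ATF4 acts, was searched as TGATGNAAN on both strands of RefSeq promoter windows (250 bases before to 50 after the start). It was present in 4.5% of 27025 genes with a window, and in 5 of the 27 synthetases with one, namely Aars, Gars, Iars, Tars and Yars. All 5 were among the 13 cytosolic genes with a window, and none among the 14 mitochondrial ones. Parts of 3 of these promoters are shown because they carry the element before the start site of enzymes that the amino acid response is known to reach. They lie at chr8:111033703-111033763 (+ strand) for Aars, chr6:55037944-55038000 (+ strand) for Gars and chr15:11399659-11399700 (- strand) for Tars, in build GRCm38.p6, and are written 5′ to 3′ along the gene with the match, read on the opposite strand, in capitals.
Aars: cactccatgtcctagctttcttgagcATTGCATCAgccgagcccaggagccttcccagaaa
Gars: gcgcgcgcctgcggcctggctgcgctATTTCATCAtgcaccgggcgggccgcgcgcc
Tars: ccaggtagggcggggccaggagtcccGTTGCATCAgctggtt
The 5 genes shared no direction over time: Aars and Yars fell (-0.80 and -0.79), while Gars (0.24), Iars (0.66) and Tars (0.56) had positive values that did not pass the test. A match of letters is not by itself a binding site.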

How the data were processed

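The deposited values were raw read counts, whole numbers in 1 table with a row for each RefSeq transcript and a column for each of the 8 libraries. Ribosomal RNA had been depleted, and cDNA was made from random hexamer and poly A primers, then amplified isothermally and by PCR, per the labels' protocols. Build mm9, TopHat 1.3.1, CASAVA 1.7, limma 3.12.3 and edgeR 2.612 are named, without their roles, per the submitters' processing notes. The sources used here do not give how reads were counted, or whether by strand. Exons of 14 synthetase genes overlap those of another gene on the opposite strand in GRCm38, among them Hars with Hars2 (195 nucleotides) and Iars2 with Rab3gap2 (2034), and Aars overlaps Exosc6 on the same strand. These values, and that of Iars, which shares sequence with Gm4849, are uncertain to that extent.

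Of 27304 identifiers in 28157 rows, 97.9% were matched to a symbol through RefSeq and GENCODE tables of GRCm38, which served for names, GC content, length and sequence only. Rows without a symbol (1.19% to 1.99% of the counts in a library) were tested under their identifier. Tests used R 4.3.3 and edgeR 4.0.16 (robust quasi-likelihood, TMM factors, default low-count filter, Benjamini-Hochberg adjustment over all rows at 0.05). Time and training were fitted on 7 samples with tissue (the summed pair coded 0.5) as covariate (3 residual degrees of freedom), tissue on 6 libraries with training and time as a block (2 residual degrees of freedom). Training at 6 h in each tissue used log2 CPM ratios with a prior count of 2 and exact 95% intervals for the ratio of counts. Intervals and floors cover counting error only, since reads without molecular identifiers are not independent molecules. DESeq2 1.42.0, limma-voom (limma 3.58.1), other scaling, no filter, rows summed per gene, GC and length offsets, and leaving out libraries were alternatives.

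The text names the synthetases called in a comparison (the 4 of smallest p where fewer passed), at 6 h the 3 highest and lowest ratios among those with at least 50 counts, the 3 highest and lowest levels of each compartment, and up to 4 list genes a direction. Further synthetases were named after their values were seen: those related to a named gene (the other complex enzymes, Farsb and Yars2), those holding the element, Fars2 and the genes with opposite ratios. The genes and lists were chosen with earlier results of these data known.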

Additional observations from a re-analysis of the deposited data

Results flagged for a closer look

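In the hippocampus control 6 h library 3 synthetases lay far from the other libraries of their group. Aars was the lowest of the 4 libraries at 6 h there, at 46.5 CPM against 104 to 112 in the others. Iars was the highest there among the libraries at 6 h, at 107 CPM with the next at 62.6, and also among the control libraries, where the next stood at 55.5. Iars2 was the highest there among the libraries at 6 h, at 72.2 CPM with the next at 27.5. In all, 74 sets of 4 libraries were examined and 4 stood out in this way; chance marks about 1 in 20. The library has the fewest counts and the most Kif5c, and the part of either in these values was not tested.

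At 6 h, 4 synthetases had conditioned-over-control count ratios on opposite sides of 1 in the tissues, with counting intervals that did not reach 1. The ratio of Lars2 was 2.65 in the hippocampus and 0.168 in the cortex. Sars had 1.63 in the hippocampus and 0.846 in the cortex. Gars had 0.653 in the hippocampus and 1.32 in the cortex, and Mars1 had 0.637 and 1.34 in the same order. In the hippocampus the intervals of 11 synthetases lay above 1 and those of 7 below, and in the cortex those of 5 and 4. Over all rows, 33.6% in the hippocampus and 2.58% in the cortex were past a log2 ratio of 1. The share of all rows with opposite ratios by this rule was not computed, so the 4 genes have no background beside them. The difference between the tissues was not tested, since each ratio compares 1 library with 1 library.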

How the results depend on the processing

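The count of synthetases higher at 6 h was 2, and 1 under DESeq2, upper-quartile scaling, median-of-ratios scaling, no filter or summed rows, 5 with the pair entered separately and 1 with the pair left out. The count lower was 9, and 2 under GC and length offsets and 3 with the pair left out. Rows called for time numbered 6167, and 1742 under GC and length offsets and 3745 with the pair left out. Dars turned to -0.19 under GC and length offsets. Leaving out 1 library at a time gave 0 to 7327 rows, 0 to 6 synthetases higher and 0 to 11 lower. The cortex control 1 h library, left out, gave 0 rows (5532 at an unadjusted p under 0.05, smallest adjusted p 0.071), the hippocampus control 1 h library 1830, and the cortex conditioned 6 h library 2540. Without the hippocampus control 6 h library 6510 rows, 2 synthetases higher and 9 lower were called. Rows called for tissue numbered 600, and 921 without the filter, 346 with summed rows, 1017 under GC and length offsets, 0 with the pair under its labels (1588 at an unadjusted p under 0.05), and 200 to 874 leaving out 1 library. No alternative called a synthetase for training or tissue. Upper-quartile scaling shifted the median of all rows over time to -0.15, beside -0.42 for the synthetases. The causes of these shifts were not tested. The labels carry no replicate numbers that link separate samples, so no replicate block could be added; the tissue fit already sets hippocampus against cortex within each combination of training and time. Low counts limit the mitochondrial genes most: Fars2 had 1 count and Cars2 5 in the shallowest library.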
